A study of Drosophila melanogaster with 2 samples.

Results

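Among the 3672 ChIP-seq peaks of the CG12299 protein that passed the authors' reproducibility threshold, 509 (13.9%) had their summit inside an intron and at a moderate distance from a gene start. They were chosen by position alone: a summit more than 500 and at most 2000 bp from the nearest annotated transcription start site (TSS), inside an annotated gene and in no exon of any transcript. The other thresholded peaks comprised 2175 within 500 bp of a TSS, 577 in introns beyond 2000 bp, 85 in exons and 326 between genes. The material was whole Drosophila melanogaster embryos aged 0 to 24 h, of a line that stably expresses, from a transgene, CG12299 fused to a C-terminal GFP (green fluorescent protein). An antibody against GFP pulled down the sonicated chromatin. There was 1 group of 2 biological replicates. Both replicates carried the transgene, sex was not collected, and there was no second condition. Whole embryos mix all cell types and stages of that day, so a peak cannot be assigned to a cell type.

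Introns near the start of a gene often hold enhancers, which are short stretches bound by transcription factors that act on a promoter, and many Drosophila genes carry further promoters inside their own introns. Long introns can also enclose whole other genes, so an intronic site may lie close to the start of a gene that is not its host. The host is named here as the gene whose intron holds the summit, with no statement that the peak acts on it.

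The sequences below run from 50 bp before to 50 bp after a summit, on the + strand of the release 6 assembly (dm6), as held in RefSeq. They are shown because these are the strongest of the intronic peaks whose window is free of exons (the first 8 lines, with 1 arm left out), followed by the next pair that held a word found more often in these peaks. Capitals mark 4 words wherever a search found them on either strand: the homeodomain core word TAATTA, the TATA word TATAAA, the AT-rich word TTTAAAA and the 7-mer ACAGTGG, which was singled out after its values were seen.
CG11050, chr2L:6612656-6612756: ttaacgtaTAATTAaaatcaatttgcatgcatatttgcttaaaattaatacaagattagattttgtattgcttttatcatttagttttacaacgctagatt
ush, chr2L:481058-481158: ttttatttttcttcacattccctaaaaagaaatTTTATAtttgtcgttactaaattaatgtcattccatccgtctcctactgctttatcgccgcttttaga
Trl, chr3L:14759472-14759572: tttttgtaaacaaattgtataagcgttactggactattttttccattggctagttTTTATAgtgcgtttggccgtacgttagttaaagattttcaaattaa
Lk6, chr3R:11761006-11761106: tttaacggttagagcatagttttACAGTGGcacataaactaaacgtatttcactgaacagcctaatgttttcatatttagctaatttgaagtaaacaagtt
CG32772, chrX:4910335-4910435: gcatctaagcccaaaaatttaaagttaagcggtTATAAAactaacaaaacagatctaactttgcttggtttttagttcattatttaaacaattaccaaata
chif and Hyls1, chr2L:16351190-16351290: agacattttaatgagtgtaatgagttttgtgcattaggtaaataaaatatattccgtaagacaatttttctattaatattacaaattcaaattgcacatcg
CG9663, chr2L:3302132-3302232: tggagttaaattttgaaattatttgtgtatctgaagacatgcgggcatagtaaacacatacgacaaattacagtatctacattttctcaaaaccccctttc
for, chr2L:3655770-3655870: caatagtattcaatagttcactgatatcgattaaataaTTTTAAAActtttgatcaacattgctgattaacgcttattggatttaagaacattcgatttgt
NFAT, chrX:13640455-13640555: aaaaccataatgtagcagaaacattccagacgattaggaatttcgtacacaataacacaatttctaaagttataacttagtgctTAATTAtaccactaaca
Reph, chr2L:3804709-3804809: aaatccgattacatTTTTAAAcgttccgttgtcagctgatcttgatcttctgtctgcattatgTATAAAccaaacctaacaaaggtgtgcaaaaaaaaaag
These windows were poor in G and C, from 21.8% at CG11050 to 33.7% at CG9663 and Reph. The base composition of all 509 summits is compared with that of other peaks further on.

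Each peak has a signalValue, the peak caller's own score of its strength, whose scale is not given and holds only within one list. The signalValues of the 509 intronic peaks ran from 107.1 to 2056.6, with a median of 160 and quartiles of 127 and 253. The other thresholded peaks had a median of 154 and quartiles of 124 and 222. A signalValue above the median of the whole list, 155, was reached by 273 of the 509 (53.6%), against 1563 of 3163 other thresholded peaks (49.4%). That difference missed the threshold (odds ratio 1.18, 95% interval 0.981 to 1.43, Fisher's exact test, two-sided, adjusted p = 0.12). From replicate 2 alone it passed, with 58.1%, against 48.7% (odds ratio 1.46, exact test, adjusted p = 1.71e-04). Of the 100 strongest thresholded peaks 17 were intronic ones of this class, and of the 20 strongest 4 were, at CG11050, ush, Trl and Lk6.

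The strongest peak of the whole list lay on 2L from 6612520 to 6612891, in the second intron of CG11050, a gene the files do not annotate further. That intron is 140 bp long and the called interval 372 bp, so the summit is intronic but the interval reached into the flanking exons. The peak had a signalValue of 973.2 in replicate 1 and 1088.7 in replicate 2 and ranked 1 in both. The peak in the first intron of ush, which encodes a zinc-finger cofactor of GATA factors, had 800.3 in replicate 1 (rank 6) and 1062.1 in replicate 2 (rank 2). Its nearest TSS, 1420 bp away, was that of the zinc-finger gene cbt. In Trl, the gene of the GAGA factor, the summit lay in the second intron, 1527 bp downstream of a Trl TSS, with 748.4 in replicate 1 and 665.4 in replicate 2. Lk6, a kinase that phosphorylates the translation factor eIF4E, had its peak in the first intron, 977 bp upstream of a later Lk6 TSS, with 670.1 in replicate 1 and 651.7 in replicate 2. These 4 peaks stood within the first 18 ranks of both replicates, so neither replicate alone accounted for them.

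Hosts of the next strong peaks covered several kinds of protein. CG32772 had a peak of 1239.0 in the pooled data (578.1 in replicate 1, 658.9 in replicate 2). A peak of 1063.8 lay in introns of both chif, which encodes the regulatory subunit of a replication kinase, and Hyls1, a centriole gene (576.5 in replicate 1, 484.9 in replicate 2). HmgZ and HmgD, which encode HMG-box chromosomal proteins and overlap here, held a peak of 1034.3 at 618 bp upstream of an HmgZ TSS (554.9 in replicate 1, 467.9 in replicate 2). The summit in CG9663 reached 1022.8, with 534.8 in replicate 1 and 469.9 in replicate 2. Their ranks in both replicates were 40 or better.

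In for, the cGMP-dependent protein kinase gene, the peak of 787.7 lay 1133 bp downstream of a for TSS (375.0 in replicate 1, 402.0 in replicate 2). NFAT, a transcription factor gene, had a peak of 777.3 (383.5 and 391.7 in replicates 1 and 2). Reph followed with 762.3 (363.0 and 406.1) and the forkhead gene CHES-1-like with 730.9 (315.1 and 421.9). The other hosts among the 20 strongest were CG9837, CG4496, CG3726, CG31635, CG9135, wde, simj and norpA, with signalValues from 588.3 to 729.7. Of these, wde encodes a cofactor of the histone methyltransferase Eggless, simj the p66 subunit of the NuRD chromatin remodelling complex, and norpA the phospholipase C of phototransduction. The replicates kept these peaks within their first 146 ranks.

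Over all 509, 507 overlapped a peak of replicate 1 by at least 1 bp and 509 a peak of replicate 2. Since the threshold itself was derived from the replicates, this match is built into the list. Among the 3672 strongest peaks of each replicate, 361 of the 509 (70.9%) were found in both, against 2287 of 3163 other thresholded peaks (72.3%; odds ratio 0.934, 95% interval 0.759 to 1.15, Fisher's exact test, two-sided, adjusted p = 0.61). By pooled signalValue, 126 of the 127 strongest of the 509 were found in both, but only 18 of the 127 weakest. The worst rank of a matched intronic peak was 10918 in replicate 1 and 23397 in replicate 2. The Spearman correlation between the replicates' signalValues was 0.687 over 507 intronic peaks and 0.645 over 3162 others, a description over peaks that share both libraries. The plot of replicate 1 against replicate 2 gives the values of each peak.

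**Figure D1:**
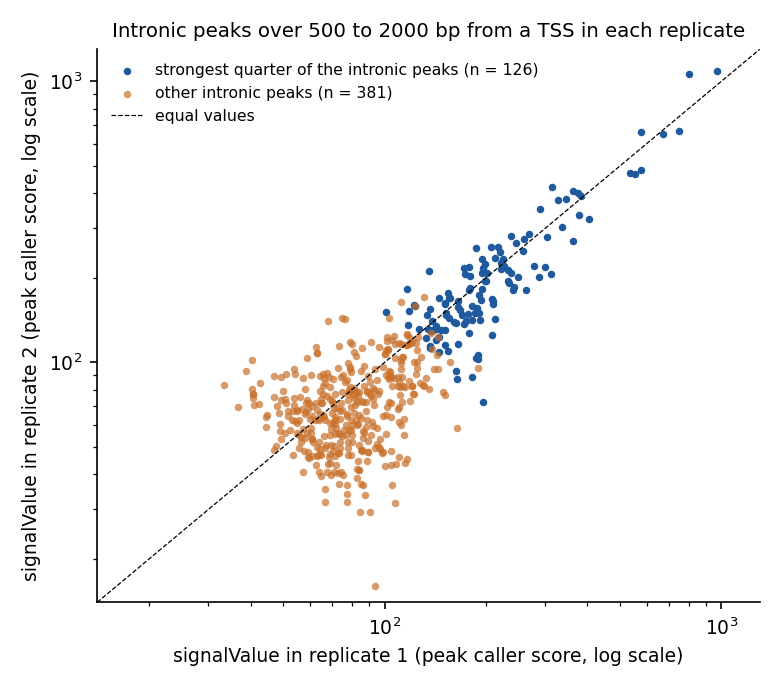
SignalValue of each intronic peak in replicate 1 (x axis) and replicate 2 (y axis), both log scales in the caller's score units, with peaks of a pooled signalValue of 252.9 or more in blue (126 of 127 matched) and the others in orange, for the 507 peaks matched in both replicates. The strongest peaks lie near the line of equal values, with CG11050 at 973.2 and 1088.7 the topmost, and the weaker ones scatter around it. Some blue peaks lie off the line, such as JIL-1 at 195.9 and 72.5. The strong peak not plotted, in prage (359.1), had no match in replicate 1.

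The pooled list called on both replicates together held many weaker peaks. Of its peaks at the same kind of intronic position, 509 of 4103 were thresholded, 12.4% (95% exact Clopper-Pearson interval 11.4 to 13.5), against 577 of 7856 intronic peaks beyond 2000 bp, 7.34% (6.78 to 7.94). This gave an odds ratio of 1.79 with a 95% interval of 1.58 to 2.03 (Fisher's exact test, two-sided, adjusted p = 1.11e-18). Over all positions 3672 of 29217 pooled peaks were thresholded, 12.6%. The share in this range of distances was near that of the whole list and the share deeper in introns was below it. Within 500 bp of a TSS the thresholded share was higher, 22%, and it was 6.66% between genes and 3.4% in exons. Peaks and not embryos are the units of this and every following test, and since thresholded peaks are those of highest signalValue, each comparison with the remaining pooled peaks sets stronger peaks against weaker ones.

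Within the range, the thresholded share was highest next to the TSS. It was 15.3% over 500 to 750 bp away (144 peaks), 12.8% over 750 to 1000 bp (107), 11.5% over 1000 to 1500 bp (148) and 10.6% over 1500 to 2000 bp (110). The median distance was 1006 bp, against 1108 bp for the 3594 remaining pooled peaks of the same class. The lower bound cut through a dense stretch, with 68 thresholded intronic summits over 500 to 600 bp from a TSS (median signalValue 158) and 56 just outside, over 400 to 500 bp (152). At the upper bound 26 lay over 1900 to 2000 bp away (150) and 13 over 2000 to 2100 bp (182). The 3 peaks nearest the lower bound lay in Usp10, CG10543 and aru, with signalValues of 108.7, 158.6 and 426.2, and those nearest the upper bound in crol, NFAT and RhoGAP18B, with 129.0, 144.4 and 159.8.

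**Figure D2:**
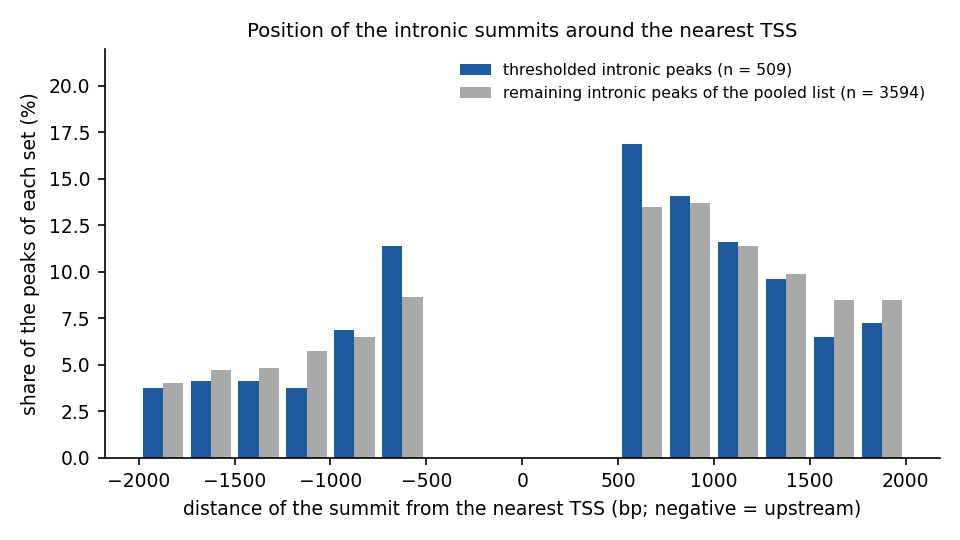
Share of the 509 thresholded intronic peaks (blue) and of the 3594 remaining intronic peaks of the pooled list (grey) per 250 bp of distance from the nearest TSS (x axis, bp, negative for upstream; y axis, percent of each set). Both sets have more summits downstream, and the bins next to 500 bp on either side hold 16.9% and 11.4% of the thresholded peaks, against 13.5% and 8.65% of the remaining ones.

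Most of the peaks lay in a first intron. The summit was in the first intron of at least 1 transcript in 424 of 509 (83.3%), against 2762 of 3594 remaining peaks of the class (76.9%; odds ratio 1.5, 95% interval 1.17 to 1.91, Fisher's exact test, two-sided, adjusted p = 0.00167). For 289 (56.8%) it was the first intron in every transcript that has it. The lowest intron number was 2 for 61 peaks, Trl and CG11050 among them, 3 for 7 and 4 or higher for 17, such as the peak of 456.0 in Msp300, which encodes a giant nesprin-like muscle protein, in intron 12 or 13 depending on the transcript. The difference in first introns was no longer past the threshold among peaks up to 1000 bp away, where the odds ratio was 1.08 (82.9% against 81.8%, exact test, adjusted p = 0.724). It was also lost when remaining peaks below their median signalValue were left out (83.3% against 80.2%, odds ratio 1.23, exact test, adjusted p = 0.176).

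The introns were mostly longer than the range of distances. The shortest intron that held the summit had a median length of 4270 bp (quartiles 1843 and 10309 bp), 4676 bp for the remaining peaks, and the summit lay a median of 697 bp from the nearest splice site. Introns over 2000 bp held 373 of the 509 (73.3%) and 7 summits were in introns under 300 bp. The called interval itself, most often 384 bp long (414 peaks), reached into an exon in 56 cases (11%), against 15.7% of the remaining peaks.

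Summits lay on either side of the nearest TSS. They were downstream in 336 of 509 (66%), against 65.5% of the remaining peaks (odds ratio 1.02, 95% interval 0.84 to 1.24, Fisher's exact test, two-sided, adjusted p = 0.842). In 318 cases the peak followed a TSS of its own host, and in 120 it lay upstream of a later TSS of that host, as in Lk6, NFAT and Reph. For the other 71 the nearest TSS belonged to another gene, which lay wholly inside the host in 55. That TSS was of a protein-coding gene for 33 of the 71 peaks, of a gene annotated as ncRNA for 29, of a snoRNA for 5 and of a tRNA for 4, and some of these genes were nearest to more than 1 peak. EcR, the ecdysone receptor gene, is an example, with a peak of 166.4 downstream of a tRNA gene inside it, and Btk, a Tec-family kinase gene, had 546.3 beside another tRNA.

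The 509 peaks lay in 449 host genes, 436 of them protein-coding. Of these hosts, 379 held 1 such peak, 52 held 2 and 18 held 3 or more. The protein-coding CG1677 and the overlapping lncRNA:CR44357 on X held the same 7. CHES-1-like held 6, Tlk, a tousled-like kinase gene, 5, NFAT 4 and shn, a zinc-finger gene of BMP signalling, 4. Trl, Lk6, HmgZ, CG14434, CG10543, Tpr2, CG42258, Dys, Kank and Diap1, an inhibitor of apoptosis, held 3 each, as did 2 further hosts, Svil and RhoGAP18B. In shn the 2 peaks of 160.3 and 108.2 overlapped each other, one of the cases behind 8 peaks that overlapped another of the set, and 49 had another summit of the set within 1000 bp.

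In CHES-1-like the 6 summits all lay in the same first intron, of 18998 bp, in the transcript with the 5′-most start. The gene's other starts lie inside that intron. The strongest, 730.9, lay 2396 bp into the gene, and 786 bp upstream of a non-coding gene on the opposite strand, lncRNA:CR43287. Beside it stood peaks of 231.1 at 2885 bp and 301.3 at 3752 bp. Further ones reached 194.0, 422.0 and 148.9 at 5588, 10964 and 16434 bp. The 2 replicates gave 315.1 and 421.9 for the strongest, and 74.6 and 67.5 for the weakest.

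In CG1677 the 7 peaks all lay in its second intron, which encloses several other genes, and each was nearest to the TSS of one of those. The peak of 510.6 was 809 bp downstream of the start of Dok, an adaptor protein gene, and in a Dok intron too (245.2 in replicate 1, 265.4 in replicate 2). Peaks of 286.5 and 144.9 lay upstream of CBP, and 1 of 251.4 lay inside it. The peak of 223.1 was 719 bp upstream of brk, the repressor of BMP target genes, with 150.9 in replicate 1 and 76.3 in replicate 2, the widest gap between replicates at this locus. Peaks of 188.7 and 138.1 lay upstream of unc-119. The map of these introns shows that none of the 7 was near a start of CG1677 itself.

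**Figure D3:**
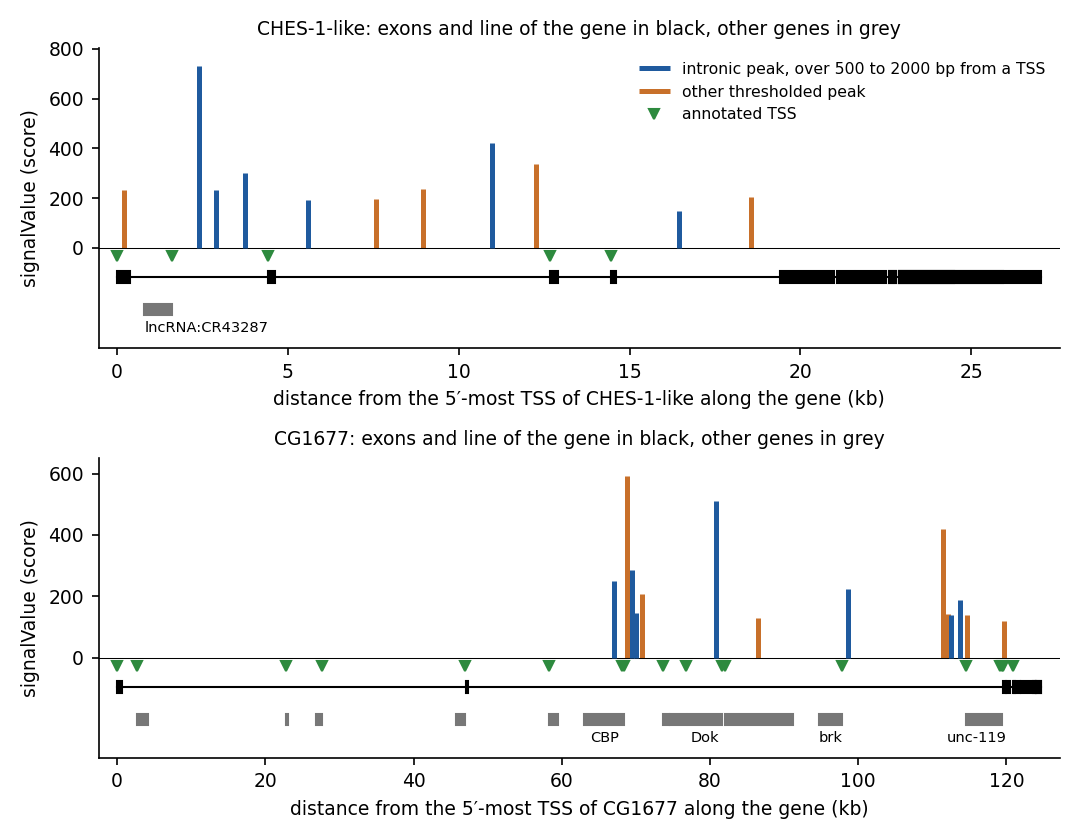
Thresholded peaks as vertical lines (y axis, pooled signalValue) along CHES-1-like (upper panel) and CG1677 (lower panel), by distance in kb from the 5′-most TSS of the gene (x axis), with the intronic peaks of this class in blue, other thresholded peaks in orange, TSSs as green triangles, exons in black and other genes in grey. In CHES-1-like the peak of 730.9 is the tallest, and in CG1677 the blue lines stand beside CBP, Dok, brk and unc-119 rather than at the ends of the host.

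Hosts often had a thresholded peak at a promoter as well. In 275 of 509 cases (54%) a host also had a thresholded summit within 500 bp of one of its TSSs, against 1529 of 3594 remaining peaks of the class (42.5%; odds ratio 1.59, 95% interval 1.32 to 1.91, Fisher's exact test, two-sided, adjusted p = 3.15e-06). A host with several intronic peaks entered this test once for each, and no count by host gene was made. Where both kinds of peak existed, the intronic peak was the stronger in 138 and the weaker in 137, with a median ratio of promoter to intronic signalValue of 0.998. At CG11050 the intronic peak had 2056.6, against 177.2 at the promoter, and at Trl the intronic peak had 1402.9, against 208.6. The other 234 had no thresholded peak at a host promoter, ush, CG32772, CG9663, NFAT and norpA among them.

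Host genes were counted in 15 lists of developmental, signalling and housekeeping genes. As the yardstick, 449 of the 2157 genes with any pooled summit of this intronic class had a thresholded one, 20.8%. The shares per list ran from 15.2% to 50%, on counts of 3 to 14 genes, and 13 of the 15 lists were above the yardstick. No test was made of a list. The lists do not hold every gene of a kind, so the counts and the strongest hosts named hold within a list only. A long intron gives more room for a peak, and its part in these shares was not tested.

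**Figure D4:**
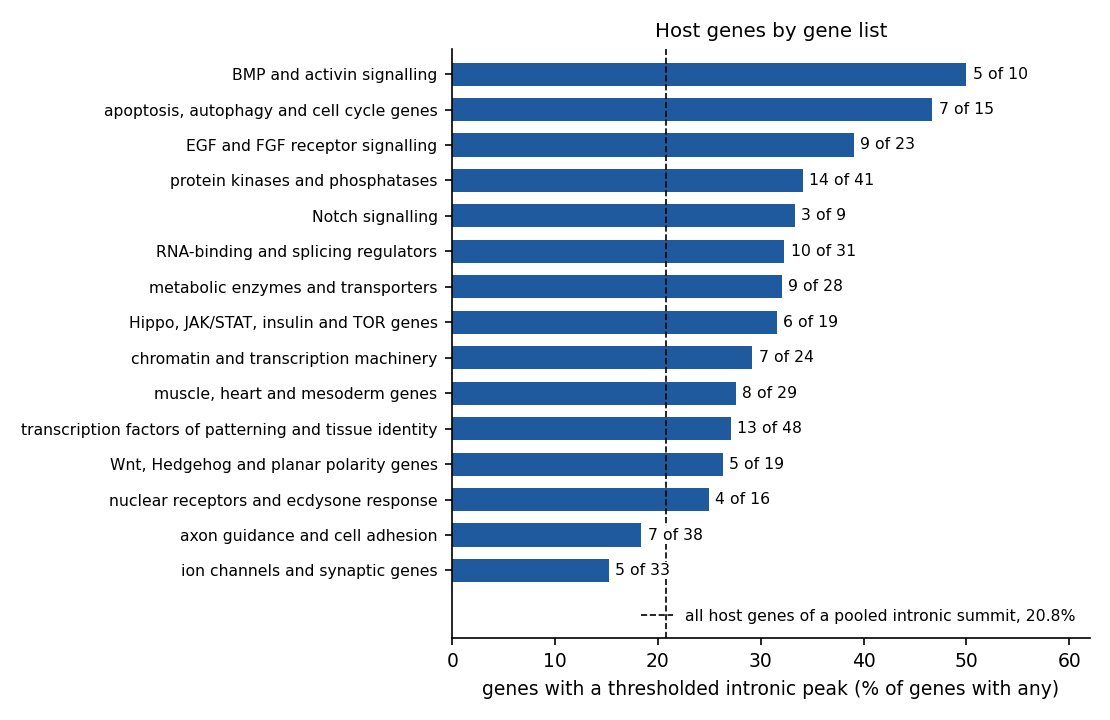
Share of the genes of each list that host a thresholded intronic peak, among those that host any pooled intronic summit of the class (x axis, percent), with the counts beside each bar and the share over all hosts, 20.8%, as a dashed line. BMP and activin genes (5 of 10) and apoptosis, autophagy and cell cycle genes (7 of 15) have the longest bars, and axon guidance (7 of 38) and ion channel genes (5 of 33) lie below the line.

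The signalling lists differed among themselves. Of the BMP and activin genes with a pooled intronic summit, 5 of 10 (50%) had a thresholded one: shn (551.2), Mad, the pathway's receptor-regulated Smad (277.7), the type II receptor gene wit (174.4), the inhibitory Smad gene Dad (147.1) and magu. Of the genes listed under EGF and FGF receptor signalling 9 of 23 (39.1%) did. They included the adaptor gene drk (380.8), the Ets-factor regulator edl (366.4), the JNK phosphatase gene puc (221.3) and the Ets factor gene pnt (194.6). In drk the replicates gave 208.7 and 167.4, and in edl 191.2 and 173.7. Notch genes counted 3 of 9 (33.3%), with cno, an afadin (451.3), the ubiquitin ligase gene neur (233.4) and the co-activator gene mam (110.8). Wnt, Hedgehog and planar polarity genes counted 5 of 19 (26.3%), all weak, led by the co-receptor gene arr (142.9), sgg, the GSK3 kinase (135.7), ttv (134.0) and boi (126.5).

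Hippo, JAK/STAT, insulin and TOR genes counted 6 of 19 (31.6%). After Lk6 the strongest were the AMPK subunit gene SNF4Agamma (449.6), the insulin receptor gene InR (357.5) and sima, the HIF-alpha subunit (151.9). The InR peak had 212.1 in replicate 1 and 143.0 in replicate 2 and lay 658 bp upstream of a later InR start. The list of protein kinases and phosphatases counted 14 of 41 (34.1%), with Lk6, for, Btk and Hipk (251.3) in front among those listed. Other kinase hosts were not on it, such as Tlk (330.3). Apoptosis, autophagy and cell cycle genes counted 7 of 15 (46.7%), with brat, a translational repressor of neural stem cell growth (524.7), Diap1 (448.8), CycE (325.7) and the autophagy kinase gene Atg1 (145.4).

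Among regulators of transcription, 13 of 48 patterning and tissue identity factors (27.1%) hosted a thresholded peak. They were led by ush, shn, the zinc-finger and homeodomain gene zfh1 (305.6) and Mad, and the Hox genes Antp and Abd-B were among the weaker ones. Nuclear receptor and ecdysone genes counted 4 of 16 (25%), with the secreted insulin antagonist ImpL2 (405.4), Hr4 (182.5), EcR (166.4) and crol (129.0). The chromatin list counted 7 of 24 (29.2%). Its strongest were Trl, the co-repressor gene Sin3A (412.1), the Polycomb-group gene ph-p (331.5) and the histone H3 kinase gene JIL-1 (252.9). The hosts wde (717.1) and simj (634.9), named above, were not on this list. JIL-1 differed between the replicates, with 195.9 in replicate 1 and 72.5 in replicate 2. RNA-binding proteins counted 10 of 31 (32.3%), with brat, Tis11 (462.8), mub (360.6) and ps (262.4) the strongest.

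Genes of tissue function completed the lists. Muscle and mesoderm genes counted 8 of 29 (27.6%), with Msp300 (456.0), the talin gene rhea (327.7), mbc, a gene of myoblast fusion (233.9), and the laminin gene LanB1 (233.2). Metabolic genes counted 9 of 28 (32.1%), with the glucose-6-phosphate dehydrogenase gene Zw (464.5), the lipase gene bmm (448.1), Gdh (341.5) and SREBP (254.8). Axon guidance and adhesion genes counted 7 of 38 (18.4%), with the netrin receptor gene fra (371.5), Dg (191.6), kirre (167.9) and NetB (164.4). Ion channel and synaptic genes counted 5 of 33 (15.2%), with KCNQ (458.8), Irk1 (214.8), dlg1 (143.7) and Syn (125.7).

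The summits sat in a dip of GC content. Within 50 bp of the summit the 509 peaks averaged 32.4% GC ± 8.76 (SD over peaks), against 39.9% ± 9.04 in the 3594 remaining peaks of the same class. The other 3163 thresholded peaks averaged 34.4% ± 10.1, and the 577 thresholded intronic peaks beyond 2000 bp 32.9% ± 8.53. A value below 40.6%, the median of all pooled summits, was found in 411 of 509 (80.7%), against 1827 of 3594 (50.8%; odds ratio 4.06, 95% interval 3.21 to 5.08, Fisher's exact test, two-sided, adjusted p = 1.35e-38). At 300 to 500 bp from the summit the sets were close, at 42% and 41%. The 127 strongest averaged 29.5% and the 127 weakest 34.3%, and the window at CG11050 had 21.8%.

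**Figure D5:**
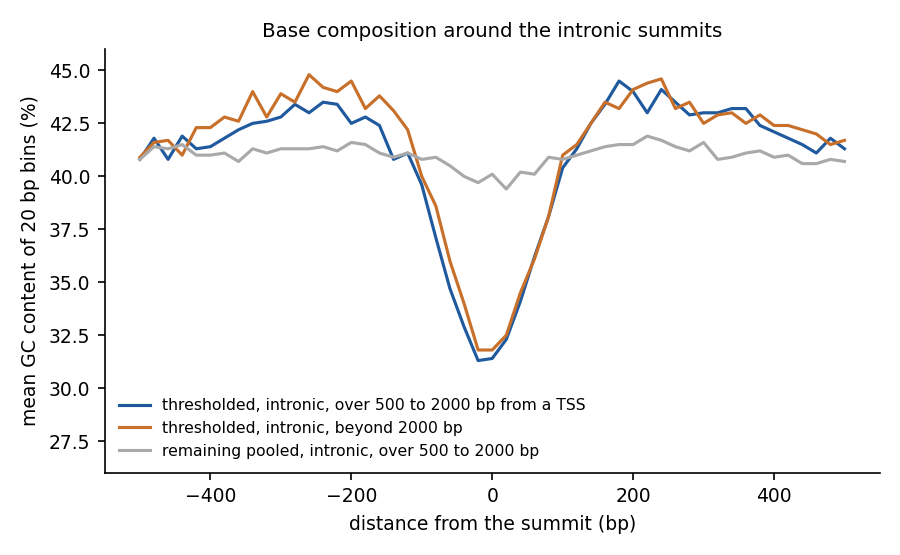
Mean GC content in 20 bp bins (y axis, percent) by distance from the summit (x axis, bp) for the 509 intronic peaks (blue), the 577 thresholded intronic peaks beyond 2000 bp (orange) and the 3594 remaining pooled peaks of the same class (grey). The bins at the summits of both thresholded sets fall to 31.4% and 31.8%, while the remaining peaks stay at 40.1%.

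Some short sequence words also differed in frequency. Both strands were searched for 17 words in the 50 bp to either side, and 5 differed from the remaining peaks of the class (Fisher's exact test, two-sided, adjusted over the words). TTTAAAA was in 15.1% of the 509, against 6.32% (odds ratio 2.64, exact test, adjusted p = 2.74e-09), and TATAAA, which is also the usual TATA box core, in 26.3%, against 15% (odds ratio 2.02, adjusted p = 1.11e-08). TAATTA was in 11.8%, against 7.51% (odds ratio 1.65, exact test, adjusted p = 0.00911), but up to 1000 bp from a TSS it was in 8.37%, against 7.93% (odds ratio 1.06, adjusted p = 0.916), and within 25 bp of the summit its call was lost too (adjusted p = 0.315). AAAAAAA was in 14.7%, against 10.4% (odds ratio 1.49, exact test, adjusted p = 0.0166). That call was lost without replicate 1, on either side of 1000 bp, with protein-coding genes only, without the weaker remaining peaks and within 25 bp (exact test, adjusted p from 0.0712 to 0.314). CACACACA was rarer, in 1.38%, against 3.95% (odds ratio 0.339, exact test, adjusted p = 0.00911). Without replicate 1 its odds ratio was 0.588 (exact test, adjusted p = 0.316), and the call was also lost on either side of 1000 bp, with protein-coding genes only and within 100 bp (adjusted p from 0.0878 to 0.217). The first 4 hold no G or C, and the part of base composition in their shares was not tested. They were not particular to this class: the other thresholded peaks held TTTAAAA in 13.7%, TATAAA in 23%, TAATTA in 10.6% and AAAAAAA in 12%. Runs of A or T can belong to more than 1 of these words, so their shares overlap.

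Against the other thresholded peaks, 2 of the 17 words differed, and both were rarer in the intronic peaks. TCGATA, part of the word bound by BEAF-32, an insulator protein of Drosophila promoters, was in 3.34% of the 509, against 8.76% of the 3163 others (odds ratio 0.36, 95% interval 0.226 to 0.605, Fisher's exact test, two-sided, adjusted p = 1.03e-04). The longer TATCGATA, the DNA replication-related element read by Dref, was in 0.196% (1 peak), against 2.31% (odds ratio 0.0833, exact test, adjusted p = 0.00238). The longer word contains the shorter, so they are not separate results. Both calls were lost among the 1836 strongest peaks of the list (exact test, adjusted p = 0.0928 for the shorter and 0.212 for the longer), beyond 1000 bp (0.13 for both) and within 25 bp (0.492 for both), and that of the longer also up to 1000 bp (0.463). The share of TCGATA was 10.9% in thresholded peaks within 500 bp of a TSS and 3.99% in intronic ones beyond 2000 bp. The GAGA word GAGAG was in 10.6%, against 10.9% of the others (odds ratio 0.969, 95% interval 0.721 to 1.32), and CAGGTAG, the word of the early embryonic factor Zelda, was in 0 of the 509, which allows a share of up to 0.589%. It was in 0.417% of the remaining peaks of the class and 0.443% of the other thresholded peaks, so no difference was detectable (exact test, unadjusted p = 0.242 and 0.241).

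By chromosome, 114 of the 509 were on X (22.4%), 127 on 3R, 99 on 3L, 85 on 2R, 83 on 2L and 1 on chromosome 4. The X share was 17.1% among remaining peaks of the class (odds ratio 1.4, 95% interval 1.12 to 1.76, Fisher's exact test, two-sided, adjusted over 6 arms p = 0.0258) and 16.3% among other thresholded peaks (odds ratio 1.49, 95% interval 1.19 to 1.87, adjusted p = 0.00568). Of the X peaks, 22 of 114 lay in the 4 hosts with most of them, CG1677, CHES-1-like, Tlk and NFAT. Counted by host gene, 93 of 449 hosts (20.7%) were on X, against 302 of the 1708 other genes with a pooled summit of the class (17.7%), and that difference missed the threshold (odds ratio 1.22, 95% interval 0.941 to 1.58, Fisher's exact test, two-sided, p = 0.15). The comparison by arm was chosen after values had been seen.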

How the data were processed

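The data were CG12299-GFP ChIP-seq peak lists of 2 biological replicates of whole embryos. The authors deposited 4 narrowPeak lists: per the deposited manifests, each replicate gave 1, both together gave 1, all against a single control alignment, and the fourth is the thresholded list made from these. The control was not analysed here. The deposited signalValue is a score of unstated scale, and the −log10 q-value that the authors deposited was not used in a test. The build was dm6, per the labels. Which aligner and caller made the lists is not given in the sources used here, and they hold no read counts, so depth is unknown, and intervals cover counting error only.

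Summits (start plus column 10) were placed on the Ensembl release 115 annotation of the release 6 assembly, without transposable elements (18164 genes and 23584 TSSs on the arms). The first intron, the direction and the promoter peak refer to any host transcript or TSS. The comparison set was the 3594 pooled peaks of the same class that overlap no thresholded peak; 782 pooled peaks that overlap one were set aside. The unthresholded lists hold 30000 peaks, with repeated positions counted once. Shares were compared by two-sided Fisher's exact tests, adjusted by the method of Benjamini and Hochberg over 7 features or 17 words, and a threshold of 0.05; odds ratio intervals are approximate (0.5 added to each cell). P-values treat peaks as units. Gene lists are counts only, and 835 listed genes were matched to the annotation; one further list is not reported here.

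Hosts are named if they hold 1 of the 20 strongest peaks or 3 or more peaks (at most 15, by number and then summed signalValue), if they are among the 4 strongest of a list, or if a peak is 1 of the 3 nearest a distance bound; Svil and Kank, and magu, Antp and Abd-B, were added after their values were seen. The peaks and lists were chosen with earlier results of these data known. Alternatives covered each replicate alone, a stricter list, other bounds, midpoints, protein-coding genes, stronger comparison peaks and other windows; arms and 7-mers were added after seeing the data. The word test was tried on a random split of the remaining peaks, without and with words planted in their windows. That check did not cover sets that differ in GC content. Analyses used Python 3.11.15, numpy 2.4.6, pandas 2.3.3, scipy 1.17.1 and matplotlib 3.10.9.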

Additional observations from a re-analysis of the deposited data

How the results depend on the processing

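Of 57 recomputed odds ratios of the main results, 48 kept their direction and side of the threshold, and of 26 recomputed counts 14 stayed within 1.5 times the reported one. The number of peaks followed the rule by construction: 273 among the 1836 strongest of the list, 251 up to 1000 bp from a TSS and 258 beyond 1000 bp, with 486 to 499 from a single replicate's strongest peaks. The first-intron odds ratio of 1.5 lost its call up to 1000 bp (1.08) and without the weaker remaining peaks (1.23), and was 1.44 to 1.7 from single replicates. The downstream odds ratio of 1.02 turned to 0.926 among the 1836 strongest, 0.945 up to 1000 bp and 0.992 with protein-coding genes only, and was 0.908 to 1.01 from single replicates; none of these passed the threshold. The odds ratio for a signalValue above the median was 1.2 to 1.46 from single replicates, and it passed without replicate 1 (1.46, adjusted p = 1.71e-04, Fisher's exact test). That for both replicates' strongest lists turned to 1.2 among the 1836 strongest and 1.04 beyond 1000 bp, and a single replicate gives no value for it.

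Against the remaining peaks, the 5 words that differed became 3 beyond 1000 bp, with protein-coding genes only or within 25 bp, and 2 up to 1000 bp, with 3 to 6 from single replicates. Against other thresholded peaks the 2 words became 0 among the 1836 strongest, beyond 1000 bp and within 25 bp, and 1 up to 1000 bp. The cause of these changes was not tested; smaller sets enter the narrower settings. The X share lost its call against the remaining peaks at both narrower distances (exact test, adjusted p = 0.297 up to 1000 bp and 0.0822 beyond it), and against other thresholded peaks up to 1000 bp (adjusted p = 0.84). The GC, promoter and thresholded-share results kept their calls in every setting run. No paired analysis was possible because there is 1 group. Depth is unknown, so its limits cannot be given.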

Other observations

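A search of all 8192 7-mers, each merged with its reverse complement and chosen after values had been seen, gave 74 that differed from the remaining peaks of the same class within 50 bp of the summit (Fisher's exact test, two-sided, adjusted over all 7-mers). Of these, 71 were more frequent in the intronic peaks, and 66 of the 71 hold at most 1 G or C. ATTTTAA led, in 15.9% of the 509, against 6.07% (exact test, adjusted p = 7.01e-09). Within 100 bp the number was 116. Against the other thresholded peaks 2 differed within 50 bp: CTATCGA, in 0 of the 509, against 3.54% (exact test, adjusted p = 6.33e-04), and ATTGTAG, in 3.73%, against 0.885% (adjusted p = 0.0234). Within 100 bp 12 did, 5 of them more frequent and 7 rarer in the intronic peaks. CTATCGA was among these 12, but ATTGTAG was not, so its call was lost in the wider window. CTATCGA holds the reverse complement of TCGATA, already reported as rarer above, so it is not a separate result.

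ACAGTGG, which stands in the Lk6 window, was singled out after its values were seen. Within 100 bp of the summit it was in 54 of the 509 (10.6%), against 4.28% of the remaining peaks of the class (exact test, adjusted p = 3.26e-05) and 6.45% of the other thresholded peaks (adjusted p = 0.307). By rank of signalValue it was in 16.5% of the 127 strongest of the 509, in 7.87% of each of the next 2 sets of 127 and in 10.2% of the 128 weakest, with no steady trend. Within 50 bp the shares were 3.14%, against 2.23% and 2.34% (exact test, adjusted p = 0.814 and 1), on 16 of the 509, and the difference between the windows was not tested.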
